A study of Mus musculus with 83 samples.

Results

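Expression of 10 genes of the colonic crypt base and of the canonical Wnt pathway was followed over adult life in the colon of 83 male C57BL/6J/Ukj mice. The genes were Lgr5, Ascl2, Smoc2, Axin2, Rnf43, Znrf3, Tnfrsf19, Lrig1, Sox9 and Notum. They were taken by name from a table of 37764 genes, with earlier results of these data known, and all 10 were found in it. The groups were formed by age, with 16 mice at 3 months (mo), 16 at 9 mo, 16 at 15 mo, 17 at 24 mo and 18 at 28 mo. All were male and of this wild-type substrain, so neither females nor another genetic background were measured. Polyadenylated RNA of the proximal section of the colon was sequenced as whole tissue, so each value mixes crypt cells with surface epithelium, muscle and other cells of the wall. Libraries were made in 3 preparations, each holding mice of every age. In bulk tissue, fewer cells of a type and less RNA per cell cannot be told apart. The question was whether these genes differed between ages, and whether they did so along a line or in steps.

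The colonic epithelium is renewed from stem cells at the base of the crypts. Wnt ligands bind Frizzled and Lrp5 or Lrp6 receptors and stabilise beta-catenin, which then drives target genes together with TCF/LEF factors. R-spondins made in the surrounding mesenchyme bind Lgr4 and Lgr5 and take the ubiquitin ligases Rnf43 and Znrf3 off the cell surface. These ligases otherwise remove Frizzled receptors, so they act as brakes that are themselves Wnt targets, as is Axin2, a scaffold of the complex that degrades beta-catenin. Lgr5, Ascl2 and Smoc2 mark crypt base stem cells, Ascl2 being a transcription factor of the stem cell state. Tnfrsf19, also called Troy, is a receptor of the TNF receptor family found on crypt base cells. Lrig1 restrains ErbB receptors, Sox9 is a transcription factor of stem, progenitor and secretory cells, and Notum is a secreted enzyme that inactivates Wnt ligands.

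The count table held a total of 23026370 to 75838290 read pairs for each mouse (median 35495123). In 649 pairs of mice of the same age, the chi-square per degree of freedom of their counts was at least 10.9, where sampling noise alone gives about 1, so none of these pairs looked like a library present in duplicate. Pairs of mice of different ages were not compared. Markers of the intestinal epithelium in general (Epcam, Krt20, Muc2 and Cdx2) and the colonocyte genes Car1 and Aqp8 were counted in every mouse. Smooth muscle ranged more widely in the younger groups. The mean log2 level of 7 muscle markers ranged from 6.81 to 9.42 at 3 mo and from 7.41 to 9.46 at 9 mo, against 8.39 to 9.28 at 28 mo. It was below 8 in 3 mice at 3 mo and 2 mice at 9 mo, and 2 other mice (3 mo replicate 16 and 28 mo replicate 13) had a median correlation with mice of their age below 0.98. For the crypt base and Wnt pathway genes followed here, calls that were lost without these mice are given beside each gene. Calls of the related genes and cell type markers named further on were not rechecked without these mice. Among other cell types, 5 of 5 endothelial and 4 of 6 macrophage markers were higher at 28 than at 3 mo, and 3 of 5 B and plasma cell markers were lower, where 23.5% of all genes were called higher and 25.9% lower. Their part in the results was not tested.

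For regulatory context, promoter sequence was at hand from RefSeq (GRCm38.p6) for 5 of the 10 genes, with 7 annotated starts between them. No sequence was used for Lgr5, Smoc2, Znrf3, Sox9 and Notum. TCF/LEF factors bind a short motif. It was searched on both strands in the 250 bases before each start as CTTTG followed by 2 bases that are each A or T. Of 32851 mouse promoters, 14.8% held at least 1 match. Among the 7 starts, 1 of Tnfrsf19 held 1, written in capitals as its reverse complement and beginning 202 bases before the start. The other Tnfrsf19 start held none and is not printed. The bases just after either Tnfrsf19 start were not found in a GENCODE transcript of that gene. The 3 sequences are those of genes that passed the test of an age slope described next, 1 start for each, on the coding strand from 5′ to 3′.
Tnfrsf19, chr14:61037988-61038237, minus strand: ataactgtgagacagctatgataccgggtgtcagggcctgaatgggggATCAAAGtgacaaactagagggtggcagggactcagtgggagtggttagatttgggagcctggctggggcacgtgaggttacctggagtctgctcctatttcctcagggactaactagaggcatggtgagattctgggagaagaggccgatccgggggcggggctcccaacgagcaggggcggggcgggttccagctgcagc
Rnf43, chr11:87662837-87663086, plus strand: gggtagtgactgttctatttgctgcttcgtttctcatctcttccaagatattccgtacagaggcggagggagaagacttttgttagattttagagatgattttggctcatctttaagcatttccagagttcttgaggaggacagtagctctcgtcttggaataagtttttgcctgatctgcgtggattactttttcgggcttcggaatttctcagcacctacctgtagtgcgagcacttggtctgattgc
Axin2, chr11:108920099-108920348, plus strand: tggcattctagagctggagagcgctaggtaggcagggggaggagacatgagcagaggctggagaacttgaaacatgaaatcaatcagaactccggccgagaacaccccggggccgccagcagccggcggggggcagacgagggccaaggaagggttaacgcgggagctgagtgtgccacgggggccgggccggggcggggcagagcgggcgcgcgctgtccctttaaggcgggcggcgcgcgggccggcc
The Tnfrsf19 stretch lies in an intron of its longer transcripts in the GENCODE annotation, and which start the colon used was not analysed here. The Rnf43 stretch ends just before the start of coding Rnf43 transcripts and lies in the first exon of a non-coding one. CpG dinucleotides numbered 8 in the Tnfrsf19 stretch, 8 in that of Rnf43 and 24 in that of Axin2, against a median of 6 over all promoters. The Axin2 stretch was 69.2% G or C. The absence of the motif in the other windows says only that these letters are not there.

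Compared per length of merged exons, in length-scaled units (TPM, which sum to the same total in every mouse), the 10 genes spanned levels from 0.744 ± 0.287 (SD, n = 83) for Notum to 64.8 ± 4.85 for Lrig1. Sox9 came next to Lrig1 at 51.5 ± 7.08 TPM, and Lrig1 was above Sox9 in 80 of 83 mice. Axin2 (22.9 ± 3.11 TPM) and Rnf43 (17.7 ± 2.59 TPM) followed, Axin2 being the higher in 82 mice. Ascl2 stood at 12.9 ± 3.44 TPM and Smoc2 at 10.2 ± 1.17 TPM. These neighbours overlapped most, Ascl2 being above Smoc2 in 66 of 83 mice. The Wnt brake Znrf3 had 6.36 ± 0.736 TPM, well under its paralogue Rnf43. The stem cell receptors were low, with 4.53 ± 0.815 TPM for Tnfrsf19 and 2.29 ± 0.504 TPM for Lgr5. Tnfrsf19 was above Lgr5, and Lgr5 above Notum, in all 83 mice. Notum rested on 4 to 48 read pairs per mouse (median 21), so counting error weighs more on it than on Lgr5 (142 to 689) or Lrig1 (2627 to 8893).

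The positions are those of GENCODE for GRCm38. Lgr5 (ENSMUSG00000020140) lies on chromosome 10 at 115450311-115587780 on the minus strand. Tnfrsf19 (ENSMUSG00000060548) lies on chromosome 14 at 60963875-61046490, also on the minus strand. Chromosome 11 carries 5 of the genes. These are Notum (ENSMUSG00000042988) at 120653788-120661175, Axin2 (ENSMUSG00000000142) at 108920349-108950783, Sox9 (ENSMUSG00000000567) at 112782224-112787760, Rnf43 (ENSMUSG00000034177) at 87662722-87735539 and Znrf3 (ENSMUSG00000041961) at 5276324-5444847. Ascl2 (ENSMUSG00000009248) lies on chromosome 7 at 142966829-142969264, Smoc2 (ENSMUSG00000023886) on chromosome 17 at 14279506-14404790 and Lrig1 (ENSMUSG00000030029) on chromosome 6 at 94604529-94700158. All 10 are annotated as protein coding. Rnf43 shares its strand with the overlapping 1110028F11Rik and Lrig1 with Mir7041, and reads on such shared stretches may be split or dropped by the counting.

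With age, 3 of the genes fell (Lgr5, Tnfrsf19 and Notum), 3 rose (Axin2, Rnf43 and Znrf3) and 4 had no slope past the threshold (Ascl2, Smoc2, Lrig1 and Sox9). Of these slopes that of Axin2 was the least firm, its call being lost under 4 of 12 other settings. The slope is the change in log2 CPM (counts scaled to a common normalised library size) for each month of age, and a gene was called at an adjusted p-value below 0.1 in the quasi-likelihood test of edgeR, adjusted by Benjamini-Hochberg over 18325 tested genes. All 10 genes passed the filter on low counts. The 6 called slopes are to be read against the whole table, in which 53.2% of genes had a called slope, 25.8% upward and 27.4% downward. Between 3 and 28 mo the same 6 genes were called, 3 higher and 3 lower, where 49.4% of all genes were called, 23.5% higher and 25.9% lower. In the test for a difference between any of the ages 5 genes were called (Lgr5, Rnf43, Znrf3, Tnfrsf19 and Notum), against 54.9% of all genes. The shares among the 10 genes were thus close to those of the colon transcriptome as a whole. The median change of the 10 genes between 3 and 28 mo was -0.03 on the log2 scale, beside -0.0087 over all tested genes.

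**Figure D1:**
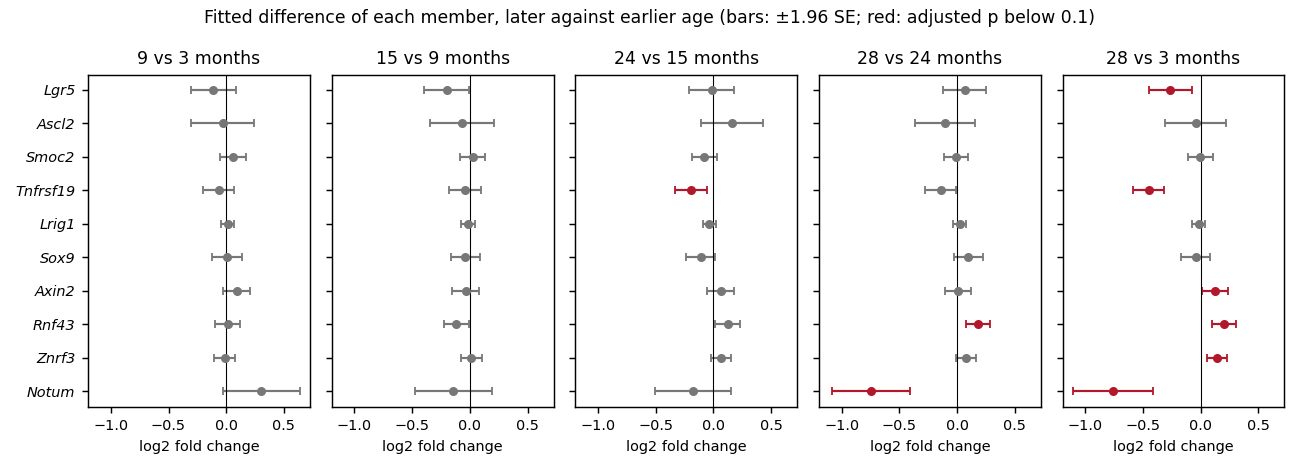
Fitted log2 fold change of the 10 genes between neighbouring ages and between 3 and 28 mo (points, later against earlier age; bars, 95% intervals; red, adjusted p below 0.1). Calls are concentrated in the panels that involve 28 mo, and Notum has the widest bars and the lowest value (-0.76 at 28 against 3 mo).

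Tnfrsf19, the crypt base receptor Troy, fell with age. Its CPM had a lowest, median and highest value of 5.88, 8.38 and 9.74 at 3 mo, 5.84, 7.76 and 8.74 at 9 mo, 5.76, 7.46 and 9.52 at 15 mo, 4.67, 6.6 and 8.49 at 24 mo, and 4.46, 5.87 and 7.55 at 28 mo. All 18 mice at 28 mo were below the 3 mo median and 9 were below the lowest 3 mo mouse, so the groups still overlapped. The slope was -0.0175 ± 0.0024 (SE) log2 per month (adjusted p = 4.68e-09), and the 28 mo mice were lower than the 3 mo mice by a log2 fold change of -0.45 ± 0.069 (adjusted p = 1.39e-07). The decline was present in each library preparation, at -0.50, -0.31 and -0.52 on the log2 scale. Tnfrsf19 was also lower at 24 mo than at 3 mo (log2 fold change -0.30, adjusted p = 0.000594), 9 mo (-0.24, adjusted p = 0.0177) and 15 mo (-0.20, adjusted p = 0.0675). Later, its log2 fold change at 28 mo was -0.38 against 9 mo (adjusted p = 8.86e-06) and -0.34 against 15 mo (adjusted p = 6.31e-05). The call at 24 against 15 mo was lost without the filter on low counts (adjusted p = 0.144). A departure from a straight line was not detected (adjusted p = 0.536).

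Lgr5, the R-spondin receptor of crypt base stem cells, was lower in the older groups, and the difference from 3 mo was already called at 15 mo. Its slope was -0.0112 ± 0.0033 log2 per month (adjusted p = 0.00393). A departure from a straight line was not detected (adjusted p = 0.381), so a step is not shown. Its lowest, median and highest CPM were 7.04, 9.03 and 10.7 at 3 mo, 4.86, 8.11 and 12.7 at 9 mo, 4.64, 7.14 and 9.28 at 15 mo, 5.17, 6.5 and 10.6 at 24 mo, and 5.12, 7.26 and 10.2 at 28 mo. The 3 mo mice were the most alike (coefficient of variation 10.1%), and the 9 mo (24.9%) and 24 mo (24.5%) mice the least. Of the 18 mice at 28 mo, 14 lay below the 3 mo median and 8 below the lowest 3 mo mouse. Against 3 mo, the log2 fold change was -0.31 ± 0.10 at 15 mo (adjusted p = 0.0452), -0.33 ± 0.098 at 24 mo (adjusted p = 0.00902) and -0.26 ± 0.097 at 28 mo (adjusted p = 0.0232). Lgr5 at 28 mo did not pass the test against 9, 15 or 24 mo, and the interval of the 28 against 15 mo difference ran from -0.14 to 0.24. The fall from 3 to 28 mo was -0.31 and -0.48 in preparations 1 and 3 but only -0.06 in preparation 2. It was no longer called with the level of 9 epithelial markers as a covariate (-0.21, adjusted p = 0.107). The 15 mo difference lost its call with the deep crypt secretory level described beside Notum as a covariate (-0.26, adjusted p = 0.153), while those at 24 and 28 mo kept theirs, and calls were added at 24 and 28 mo against 9 mo.

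Notum, the Wnt inactivating enzyme, was lowest at 28 mo. Its lowest, median and highest CPM were 0.331, 0.648 and 1.04 at 3 mo, 0.322, 0.788 and 1.14 at 9 mo, 0.400, 0.688 and 0.998 at 15 mo, 0.190, 0.594 and 0.981 at 24 mo, and 0.166, 0.278 and 0.716 at 28 mo. At 28 mo, all 18 mice were below the 9 mo median and 11 were below the lowest 9 mo mouse. The log2 fold change at 28 mo was -0.76 ± 0.18 against 3 mo (adjusted p = 0.000285), -1.07 ± 0.17 against 9 mo (adjusted p = 1.09e-06), -0.92 ± 0.18 against 15 mo (adjusted p = 2.10e-05) and -0.75 ± 0.17 against 24 mo (adjusted p = 0.00381). Before 28 mo no pair of ages differed past the threshold, and the 9 mo value was 0.30 ± 0.17 above that at 3 mo on the log2 scale (adjusted p = 0.318). Notum accordingly departed from a straight line (adjusted p = 0.00342). Its fall from 24 to 28 mo was -0.75, -0.69 and -0.72 in the 3 preparations.

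Markers of several cell types moved at the same ages as Notum. Between 24 and 28 mo, markers called lower were 3 of 5 tested for deep crypt secretory and Paneth cells and 3 of 7 for goblet cells. So were 4 of 5 for B and plasma cells, 2 of 8 for fibroblasts and 6 of 12 proliferation genes. None of these lists had a gene called higher, where 11.7% of all genes were called in either direction. The mean log2 level of the B and plasma cell markers ranged from 2.61 to 5.25 at 24 mo and from 2.05 to 4.13 at 28 mo, and their part in the Notum change was not tested. Of the 5 tested markers of deep crypt secretory and Paneth cells, 3 were lower at 28 than at 3 mo and Spink4 was higher. Reg4, with Spink4 the most abundant of them, was not called (log2 fold change -0.25 ± 0.31, adjusted p = 0.545). The 3 were Mptx2 (log2 fold change -3.95), Itln1 (-0.94) and Lyz1, the Paneth cell lysozyme (-0.64). The mean log2 level of 6 such markers ranged from 1.97 to 3.74 at 3 mo, from 2.05 to 3.94 at 15 mo and from 1.10 to 2.60 at 28 mo. Of these markers, Mptx2 was at 0 in 14 of 83 mice and Defa24 in 68. With this level as a covariate, a choice made after seeing the data, Notum at 28 mo remained lower than at 3 mo (-0.59, adjusted p = 0.00986) and at 24 mo (-0.59, adjusted p = 0.0925), but the departure from a straight line was called for neither Notum nor Rnf43. Over all 18325 genes, such departures fell from 2969 to 859 calls in the same fit. Goblet cell markers also moved, with 6 of 7 lower and 1 higher at 28 than at 3 mo, and a mean log2 level of 10.9 to 11.4 at 3 mo and 10.5 to 11.2 at 28 mo. The part of the goblet cells in the Notum change was likewise not tested. With age and library preparation removed, Notum correlated with the fibroblast (r = 0.465), macrophage (0.415), endothelial (0.368), goblet (0.352) and proliferation (0.352) levels. Its r was 0.268 with the deep crypt secretory level and 0.0426 with that of B and plasma cells. Of these levels, only the deep crypt secretory one was fitted as a covariate.

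Rnf43, a brake on Wnt receptors, had its lowest median at 15 mo and its highest at 28 mo. Its lowest, median and highest CPM were 28.9, 37.3 and 45.3 at 3 mo, 33.2, 37.2 and 46.0 at 9 mo, 27.2, 34.4 and 43.2 at 15 mo, 28.2, 38.6 and 45.6 at 24 mo, and 34.8, 42.8 and 51.8 at 28 mo. All 18 mice at 28 mo exceeded the 15 mo median, and 8 exceeded the highest 15 mo mouse. The log2 fold change at 28 mo was 0.20 ± 0.054 against 3 mo (adjusted p = 0.00171), 0.19 ± 0.054 against 9 mo (adjusted p = 0.00439), 0.30 ± 0.054 against 15 mo (adjusted p = 6.24e-06) and 0.18 ± 0.053 against 24 mo (adjusted p = 0.0218). No pair of ages below 28 mo was called, and the departure from a straight line was (adjusted p = 0.00553). The rise from 3 to 28 mo was 0.13, 0.14 and 0.33 in the 3 preparations. With the deep crypt secretory level as a covariate, the rises from 3 mo (0.13, adjusted p = 0.0724) and 15 mo (0.20, adjusted p = 0.0237) were smaller but kept their calls, and those from 9 mo (0.09, adjusted p = 0.308) and 24 mo (0.12, adjusted p = 0.291) did not. The slope of 0.00634 ± 0.0020 log2 per month (adjusted p = 0.0070) became 0.0022 and lost its call as well (adjusted p = 0.413).

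Znrf3, the paralogue of Rnf43, was also highest at 28 mo, with a smaller change. Its lowest, median and highest CPM were 13.2, 16.4 and 18.4 at 3 mo, 12.6, 16.0 and 18.4 at 9 mo, 13.1, 16.1 and 18.2 at 15 mo, 13.1, 16.4 and 20.0 at 24 mo, and 15.9, 17.5 and 20.8 at 28 mo. Of 18 mice at 28 mo, 15 were above the 3 mo median and 4 above the highest 3 mo mouse. The log2 fold change was 0.14 ± 0.045 at 28 against 3 mo (adjusted p = 0.00809), 0.15 ± 0.045 against 9 mo (adjusted p = 0.00536) and 0.14 ± 0.045 against 15 mo (adjusted p = 0.00944). Against 24 mo it was 0.08 with an interval from -0.01 to 0.17 (adjusted p = 0.289). These 3 calls were lost with the deep crypt secretory level as a covariate (log2 fold changes of 0.08 to 0.10, highest adjusted p = 0.376), and the slope went from 0.00555 ± 0.0015 log2 per month (adjusted p = 0.00221) to 0.0035 (adjusted p = 0.0923).

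Axin2, the classical read-out of Wnt signalling, had the smallest fitted change from 3 to 28 mo among the genes with a called slope. Its lowest, median and highest CPM were 32.3, 38.8 and 46.2 at 3 mo, 29.5, 42.7 and 50.7 at 9 mo, 30.1, 40.6 and 56.3 at 15 mo, 34.0, 43.6 and 48.8 at 24 mo, and 29.5, 44.0 and 48.3 at 28 mo. The groups overlapped widely, and the lowest 28 mo mouse was below every 3 mo mouse. The log2 fold change at 28 against 3 mo was 0.12 ± 0.058 (adjusted p = 0.0818). Within preparations it was -0.04, 0.19 and 0.23, so it was not shared by preparation 1. The call was lost without the filter on low counts (adjusted p = 0.114), with the smooth muscle level as a covariate (adjusted p = 0.141) or without the 5 mice of low muscle level (adjusted p = 0.162). It was also lost with the deep crypt secretory level as a covariate (0.09, adjusted p = 0.299). The slope of 0.0042 ± 0.0020 log2 per month was itself near the threshold (adjusted p = 0.0778). It lost its call without the filter on low counts (adjusted p = 0.115), with the smooth muscle (adjusted p = 0.163) or deep crypt secretory level (adjusted p = 0.240) as a covariate, and at a threshold of 0.05.

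**Figure D2:**
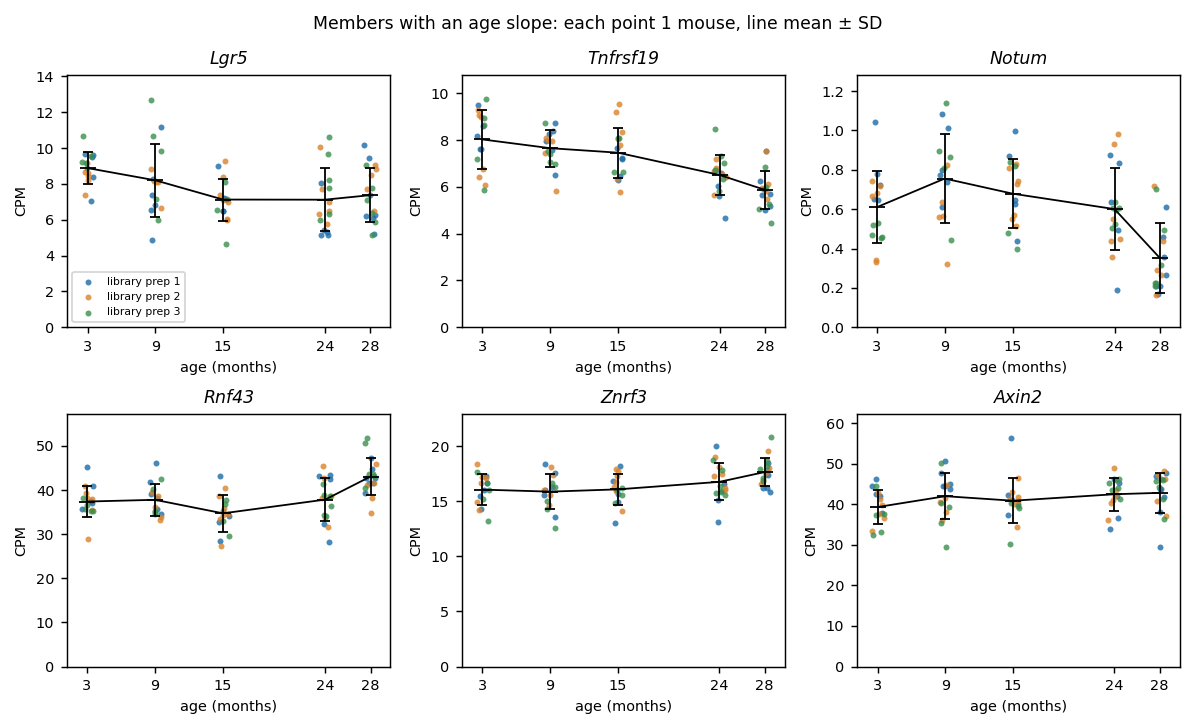
CPM of the 6 genes with a called age slope against age in months, with each mouse as a point coloured by library preparation and the mean ± SD of each age as a line with bars. Tnfrsf19 is lower at 28 mo than at 3 mo (medians 5.87 and 8.38), Notum drops at 28 mo (median 0.278) and Rnf43 is highest there (median 42.8), while individual mice of all ages overlap.

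Among the genes without a called slope, Sox9 was the nearest to the threshold (adjusted p = 0.140). Its lowest, median and highest CPM were 61.5, 73.1 and 86.9 at 3 mo, 59.4, 70.0 and 89.6 at 9 mo, 41.5, 72.9 and 82.4 at 15 mo, 51.6, 63.8 and 78.2 at 24 mo, and 55.2, 67.8 and 94.5 at 28 mo. Sox9 was lower at 24 than at 3 mo by a log2 fold change of -0.14 ± 0.065 (adjusted p = 0.0928), with 13 of 17 mice below the 3 mo median. This call was kept under only 6 of 13 other settings. DESeq2 did not call this difference (adjusted p = 0.109), nor did the fit with an epithelial covariate (-0.10, adjusted p = 0.298) or the fit without the 5 mice of low muscle level (-0.12, adjusted p = 0.244). The call was also lost without the filter on low counts, with the smooth muscle level as a covariate, with the replicate number as a block and at a threshold of 0.05. Other settings added calls for Sox9. Its slope was called without the 2 mice of low correlation and with the deep crypt secretory covariate, and its 24 against 9 mo difference was called under both of these settings, with at least 10 counts required in every mouse and in a fit of the 2 ages alone. At 28 against 3 mo the Sox9 difference was -0.04, with an interval from -0.17 to 0.08.

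Lrig1 was the most even gene, with a coefficient of variation between 4.57% and 6.35% within ages. Its median CPM was 121 at 3 mo, 120 at 9 mo, 120 at 15 mo, 117 at 24 mo and 119 at 28 mo. The difference between 28 and 3 mo was -0.02 on the log2 scale, with a 95% interval from -0.07 to 0.04. Smoc2, a secreted matricellular protein, had medians of 21.9, 24.2, 24.0, 22.7 and 23.7 CPM in order of age, and its 28 against 3 mo difference was within -0.11 to 0.10. Ascl2 had medians of 6.63, 7.10, 6.10, 7.40 and 6.22 CPM, and its mice spread widely at every age, from 23.6% to 31.9% in coefficient of variation. The interval of its 28 against 3 mo difference, from -0.31 to 0.22, still held a change as large as the fall of Lgr5. No pair of ages was called for Lrig1, Smoc2 or Ascl2, the lowest adjusted p being 0.213 for Smoc2 at 28 against 15 mo. With the deep crypt secretory level as a covariate Lrig1 was called at 24 and 28 mo against 9 mo and in its slope, and its slope was also called with the smooth muscle level as a covariate and without the 5 mice of low muscle level.

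**Figure D3:**
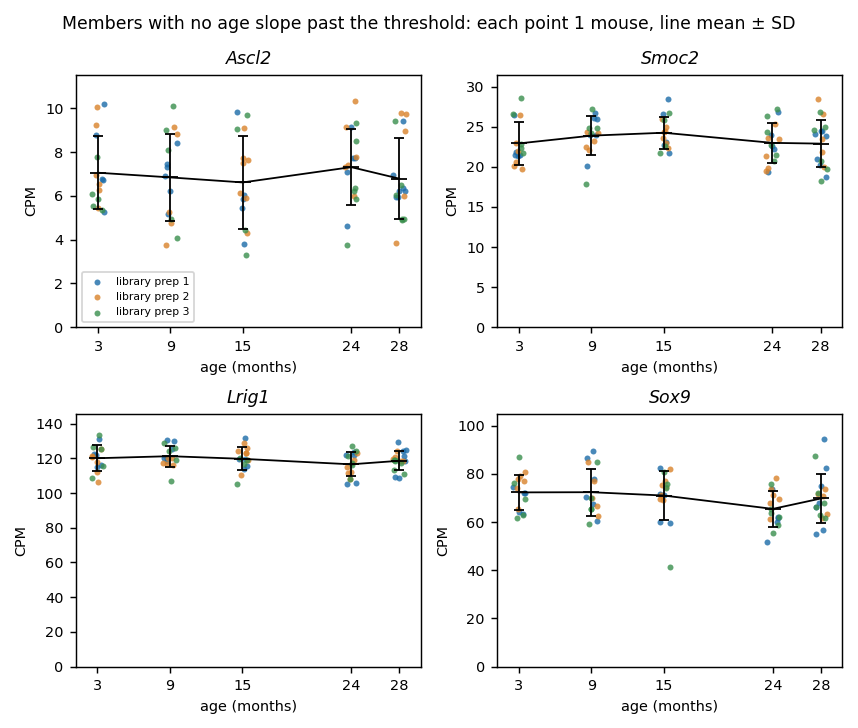
CPM of Ascl2, Smoc2, Lrig1 and Sox9 against age in months, drawn as in the plot of the genes with a slope. Lrig1 stays between medians of 117 and 121 CPM, and Sox9 is lowest at 24 mo (median 63.8 CPM), where most mice overlap those of the other ages.

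In pairs of neighbouring ages, none of the 10 genes was called between 3 and 9 mo, where 8.69% of all genes were called, or between 9 and 15 mo, where 0.431% were. At an unadjusted p below 0.05, edgeR's quasi-likelihood test gave 0 of the genes in the first of these pairs and 2 (Lgr5 and Rnf43) in the next, and DESeq2 called 0 in both. Between 15 and 24 mo only Tnfrsf19 was called (13.5% of all genes), and between 24 and 28 mo Rnf43 and Notum were (11.7% of all genes). Over longer spans, Lgr5 alone was called between 3 and 15 mo (7.75% of all genes). Lgr5, Tnfrsf19 and Sox9 were called between 3 and 24 mo (34.5%), and Tnfrsf19 between 9 and 24 mo (15.5%). Rnf43, Znrf3, Tnfrsf19 and Notum were called at 28 mo both against 9 mo (40% of all genes) and against 15 mo (42.4%). These comparisons share mice and are not independent. A departure from a straight line was called for Rnf43 and Notum, against 16.2% of all genes.

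Upstream of the receptors, 2 R-spondin ligands rose with age. Among 13 tested genes for R-spondins and Wnt transduction, 5 were higher and 1 was lower at 28 than at 3 mo. These 46.2% were close to the 49.4% called among all genes, and the median log2 fold change was 0.04 beside -0.0087 over all genes. Rspo1 rose from 0.505 ± 0.182 CPM (SD, n = 16) at 3 mo to 1.29 ± 0.501 (n = 18) at 28 mo, with 0.896 ± 0.401 at 24 mo (log2 fold change 1.34 ± 0.21 SE, adjusted p = 2.09e-07). Rspo3, the other R-spondin of the crypt niche that was called, rose from 2.97 ± 0.932 to 4.31 ± 0.870 CPM (0.54 ± 0.11, adjusted p = 2.17e-05). Rspo2 did not pass the test, and Rspo4 was too low to be tested. Lgr4, the more abundant R-spondin receptor, was lowest at 15 mo (141 ± 9.93 CPM) and highest at 28 mo (167 ± 14.1 CPM), with a log2 fold change of 0.13 against 3 mo (adjusted p = 0.0113). Ctnnb1, which encodes beta-catenin, fell from 1090 ± 68.1 to 954 ± 41.5 CPM (-0.19, adjusted p = 1.41e-06). Mesenchymal markers were mixed, with Dcn and Grem1 higher and Col1a1, Col3a1 and Foxl1 lower among 8, and a mean log2 level from 5.38 to 6.55 at 3 mo and from 5.58 to 6.51 at 28 mo. Neither their part in the R-spondin rise nor that of the mice of low muscle level was tested.

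Of 17 tested other genes of crypt stem and progenitor cells, 6 were lower and 2 higher at 28 than at 3 mo, with a median of -0.06 on the log2 scale. These 47.1% were close to the 49.4% called among all genes. Tert, the catalytic subunit of telomerase, fell from 3.26 ± 0.407 CPM at 3 mo to 2.13 ± 0.316 at 28 mo, with 2.43 ± 0.372 at 9 mo (log2 fold change -0.61 ± 0.072, adjusted p = 6.62e-11). The RNA-binding protein gene Msi1 (-0.27, adjusted p = 0.00567) and Prom1 (-0.17, adjusted p = 0.00142), a surface marker of crypt cells, fell as well. Igfbp4, a secreted binding protein of insulin-like growth factors, rose from 72.2 ± 15.9 to 98.0 ± 16.8 CPM (0.44, adjusted p = 7.77e-06) and the Polycomb gene Bmi1 by 0.23 (adjusted p = 0.000393). Cdk6, a cell cycle kinase, differed between ages (adjusted p = 0.0200) without passing the test at 28 against 3 mo. Olfm4, a stem cell marker of the small intestine, averaged 0.0860 CPM, was at 0 in 21 mice and was not tested.

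Of 11 tested other Wnt targets and feedback genes, 3 were higher and 2 lower at 28 than at 3 mo, with a median of 0.06. These 45.5% were likewise close to the 49.4% of all genes. Nkd2, an inhibitor of Dishevelled, rose (0.37 ± 0.15, adjusted p = 0.0370), as did the target transcription factor Sp5 (0.33 ± 0.12, adjusted p = 0.0206). Wif1, a secreted Wnt inhibitor, was lower (-0.22 ± 0.095, adjusted p = 0.0509). Lef1 and Bambi differed between ages (adjusted p = 0.0528 and 0.0444), and their 28 against 3 mo values of -0.22 and -0.16 did not pass the test. Proliferation genes were lower at 28 mo, with 9 of 12 called against 3 mo, all downward, and a median of -0.17, where 25.9% of all genes were called lower. Top2a, needed to separate chromosomes, went from 143 ± 32.5 to 116 ± 15.7 CPM (-0.30, adjusted p = 0.000418). Between 24 and 28 mo, 6 of the 12 were called, all downward, where 11.7% of all genes were called in either direction. The epithelial marker level went from a range of 9.79 to 10.1 at 3 mo to 9.63 to 9.96 at 28 mo, with 5 of 9 markers lower and none at 0 in any mouse.

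**Figure D4:**
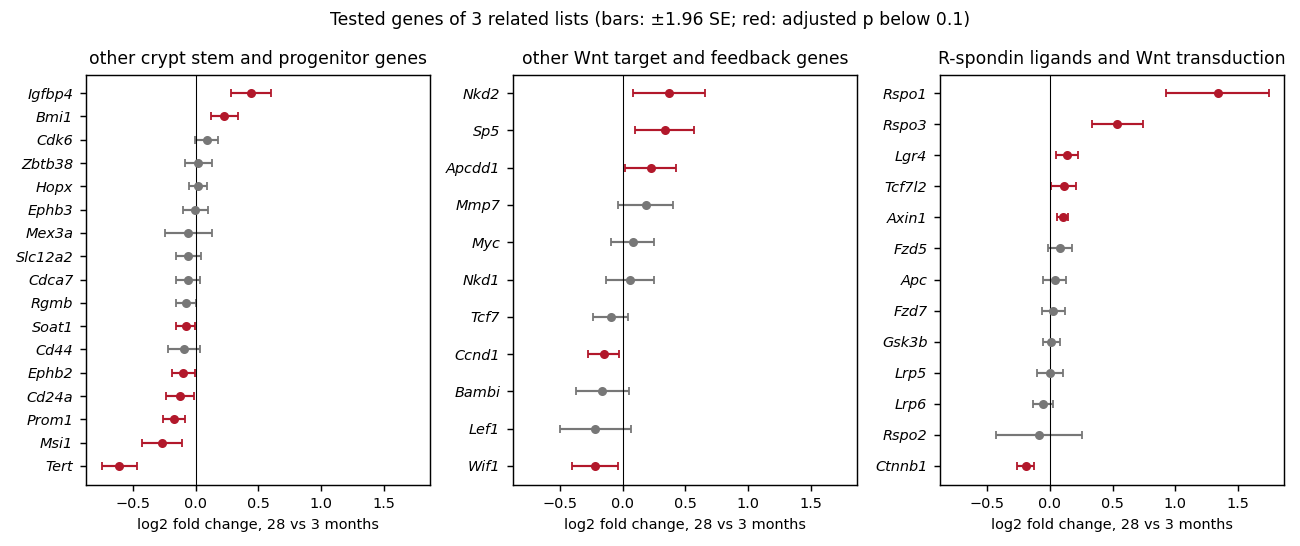
Fitted log2 fold change at 28 against 3 mo of the tested genes of 3 related lists (points; bars, 95% intervals; red, adjusted p below 0.1). Rspo1 (1.34) and Rspo3 (0.54) stand at the upper end and Tert (-0.61) at the lower end. The medians are -0.06 for the stem cell list and 0.06 for the Wnt target list, with genes called on both sides of 0.

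Within an age, mice differed in these genes together to some extent. Age and library preparation were removed from the log2 CPM, and the 45 pairs of genes were correlated over the 83 mice, with two-sided permutation tests of 100000 resamples and Benjamini-Hochberg adjustment. Of the 45 pairs, 15 were past an adjusted p-value of 0.1, 13 of them positive. The share among pairs of all tested genes was not computed, so this count has no background to be read against. Axin2 and Rnf43 were the most closely correlated (r = 0.497, adjusted permutation p = 9.0e-04, Spearman's rho = 0.454, adjusted permutation p = 9.0e-04). Without the 2 mice farthest from the median r was 0.517, and it was 0.435, 0.601 and 0.584 in the preparations taken alone. Rnf43 and Znrf3 gave r = 0.441 (rho = 0.358, adjusted permutation p = 0.00112 and 0.00690), 0.365 without 2 mice, and 0.552, 0.345 and 0.292 within preparations. Ascl2 and Rnf43 gave r = 0.402 (rho = 0.453, adjusted permutation p = 0.00135 and 4.5e-04), 0.385 without 2 mice, and 0.356, 0.467 and 0.457 within preparations. Lgr5 and Lrig1 gave r = 0.401 (rho = 0.358, adjusted permutation p = 0.00135 and 0.00690), 0.389 without 2 mice, and 0.391, 0.122 and 0.469 within preparations.

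Lgr5 and Tnfrsf19, which both fell with age, were also correlated within ages (r = 0.304, rho = 0.289, adjusted permutation p = 0.0235 and 0.0567), but r was only 0.1 and 0.169 in preparations 1 and 2, against 0.501 in preparation 3. Without 2 mice it was 0.326. The 2 negative pairs past the threshold both involved Smoc2. Smoc2 and Ascl2 had r = -0.296 (rho = -0.235, adjusted permutation p = 0.0280 and 0.110), -0.286 without 2 mice, and -0.435, -0.318 and -0.223 within preparations. Smoc2 and Rnf43 had r = -0.262 (rho = -0.261, adjusted permutation p = 0.0566 and 0.0745), which lost its call without 2 mice (r = -0.213, adjusted permutation p = 0.141) and was 0.0727 in preparation 1. The stem cell markers Lgr5 and Ascl2 did not pass the test (r = 0.199, rho = 0.170, adjusted permutation p = 0.161 and 0.230). These correlations are over whole tissue samples that also share depth and tissue composition.

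**Figure D5:**
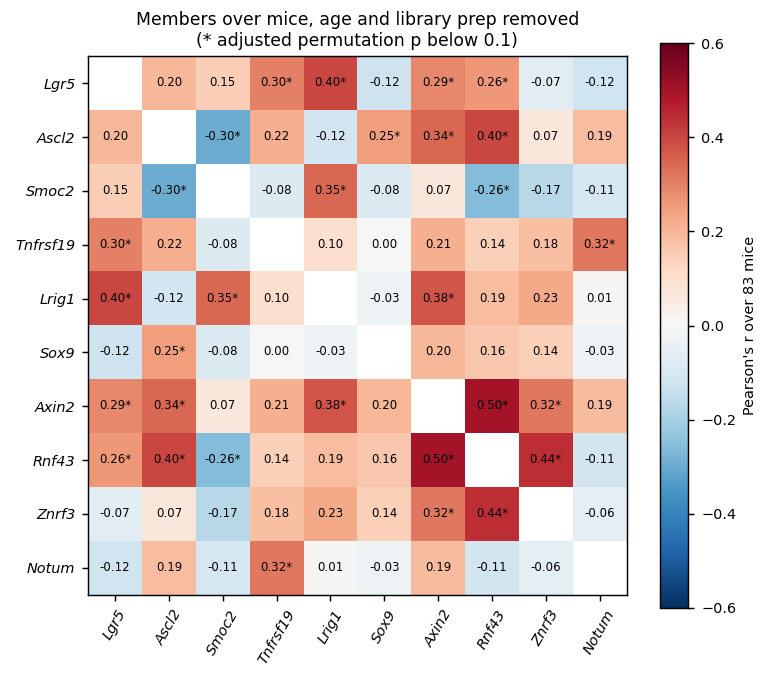
Pearson's r between the 10 genes over 83 mice after removal of age and library preparation (colour and number; asterisk, adjusted permutation p below 0.1). Rnf43, Axin2 and Znrf3 form the darkest red block (0.50, 0.44 and 0.32), and Smoc2 is negatively correlated with Ascl2 (-0.30) and Rnf43 (-0.26).

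The genes whose pattern over the 83 mice was most like that of 4 of the genes were sought among all tested genes by Pearson's r of log2 CPM after removal of library preparation. For Lgr5 the nearest were Ampd3 (r = 0.690) and Bcl11b (0.668). For Axin2 they were Farp1 (0.661), Ptpn9 (0.636) and Extl3 (0.620), and for Sox9 Smg8 (0.728), Foxa1 (0.665) and Crkl (0.654). For Notum they were Nacad (0.755), Atp6v0e2 (0.727) and Pdia6 (0.702). The Notum values dropped to 0.599, 0.529 and 0.439 once age was removed too, whereas that of Lgr5 and Ampd3 stayed at 0.680. None of the other 9 genes was among the 3 nearest of Lgr5, Axin2, Sox9 or Notum. These values are given as a description.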

How the data were processed

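Whole-tissue colon RNA of 83 mice was measured, and ages and library preparations were taken from the sample labels. The authors made stranded polyA libraries, trimmed the reads with cutadapt 2.8, aligned them to GRCm38 with HISAT2 2.1.0, removed secondary alignments with SAMtools 1.9 and counted pairs per gene by strand with featureCounts of Subread 2.0.1. The deposited values are raw counts per gene and mouse, not normalised or pooled. Reads that fit several places may be lost, which can lower the values of genes with near-identical copies.

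Tests on the counts were run in edgeR 4.0.16, under R 4.3.3 (filterByExpr by age, TMM, quasi-likelihood F-test, age and library preparation in the model, Benjamini-Hochberg adjustment over 18325 genes, the model and the threshold of 0.1 as in the study, which used DESeq2). Errors of fold changes are standard errors of the fit. Log2 CPM for scores and correlations used a prior count of 2. TPM used merged GENCODE vM21 exon lengths, found for 37612 genes. Alternatives were DESeq2 1.42.0, its size factors, other filters, thresholds, samples and covariates. Python 3.11.15 with numpy 2.4.6, pandas 2.3.3, scipy 1.17.1 and matplotlib 3.10.9 was used for the correlations and plots. Besides the 10 genes, those named from the other lists are at most 3 rising and 3 falling genes (by slope) per list past the threshold in the test between any ages, ranked by their 28 against 3 mo change. Genes called in other tests were named where they were few, after their values were seen. The members, lists and tests were chosen with earlier results of these data known. Nothing says that the mice came from separate litters or cages. The methylation data of the study were not analysed here, and 1 gene near Lgr5 in pattern is not reported here.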

Additional observations from a re-analysis of the deposited data

How the results depend on the processing

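Counts of called genes were within 1.5 times those reported in 97 recomputed counts and beyond that in 9. The count for a departure from a straight line went from 2 to 1 when at least 10 counts were required in every mouse, since Notum was then not tested, and to 0 with the deep crypt secretory level as a covariate. The count at 28 against 24 mo went from 2 to 1 under both of these settings. With this covariate, calls over all 18325 genes also fell, from 2969 to 859 for the departure and from 2139 to 503 at 28 against 24 mo. The count at 24 against 15 mo went from 1 to 0 without the filter and at a threshold of 0.05. The number of correlated pairs past the threshold was 15 over all mice and 2, 7 and 5 within preparations 1, 2 and 3, which hold fewer mice, and not all of these pairs were among the 15. With the deep crypt secretory level as a covariate 6 slopes were still called, but Lrig1 and Sox9 took the places of Axin2 and Rnf43. Except where a reason is given, the cause was not tested. This covariate and the omission of mice with low muscle level or low correlation were chosen after seeing the data.

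Among recomputed values of single genes, 371 kept direction and side of the threshold, 26 lost a call and 8 changed sign, all of the last in 28 against 3 mo differences that were not called. Smoc2 at 28 against 3 mo went from -0.0032 to 0.0055 with DESeq2 size factors, 0.0012 without the filter, 0.0052 with at least 10 counts in every mouse, 0.011 without the 2 mice of low correlation, 0.014 in a fit of the 2 ages alone and 0.0045 in DESeq2. With an epithelial covariate, Ascl2 went from -0.04 to 0.14 and Sox9 from -0.04 to 0.0092.

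Replicate numbers were labels only. Same-numbered mice had a median correlation of their deviations of 0.0103 over 161 pairs, and 3 of 83 mice correlated best with their own number. With the replicate number as a block, 6 genes were again called at 28 against 3 mo and 5 between any ages, while at 24 against 3 mo Sox9 lost its call (adjusted p = 0.131) and Axin2 gained one. The scaling by DESeq2 size factors moved the median change of all genes by 0.0079. Low depth limits Notum above all.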
